A study of Mus musculus with 4 samples.

Results

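Spots on the subventricular zone and the lining of the ventricles were examined in coronal mouse brain sections. A spot is a small circle of tissue on a Visium capture slide whose RNA is read out together, so it can hold several cells of different types. Members were found by their own expression. Each spot with at least 500 counts was scaled to 10000 counts and log-transformed, and each marker was expressed as a z-score, the distance from the mean of all kept spots in standard deviations. A spot was a member when the mean z of Ccdc153, Tmem212 and Foxj1, genes of ciliated ependymal cells, reached 1.5, or when the mean z of Dcx, Sox11, Dlx1 and Thbs4, genes of the neurogenic zone, reached 1.5. Spots with a mean z of at least 2 for Ttr, Kl and Folr1, genes of the choroid plexus, were left out. By this rule 436 of 12601 kept spots were members, which is 3.46% (exact 95% interval 3.15 to 3.79%).

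The sections came from 4 mice, of which 2 were wild type and 2 were heterozygous for Celsr3, a cadherin of the planar cell polarity family with roles in axon guidance. No mouse was treated, and the allele, the strain and the age of the mice are not given in the sources used here. Brains were fixed in formalin, embedded in paraffin and trimmed so that the striatum was in view, and RNA was read with the CytAssist version of the assay. The spots fall into 4 barcode sets, marked only by a number at the end of each spot name. The ending matches no label of a mouse, so no genotype comparison was made, no test was run, and each set's own value is given in the order of sets 1, 2, 3 and 4. Intervals are exact 95% intervals that cover counting error only, not the spread between mice.

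Ependymal cells form the single-layered lining of the brain ventricles, and most carry tufts of motile cilia that move cerebrospinal fluid. Under this lining, along the lateral ventricle, lies the subventricular zone, where astrocyte-like stem cells that carry Gfap give rise to rapidly dividing progenitors and then to Dlx-positive neuroblasts that migrate to the olfactory bulb. Planar cell polarity proteins, among them the Celsr cadherins, orient the cilia of the ependymal sheet and are needed for their directed beating.

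Of the members, 282 met the ependymal rule and are called ependymal-marker spots, 233 met the neuroblast rule and are called neuroblast-marker spots, and 79 met both. The sets held 71, 93, 112 and 160 members of 3055, 2808, 3444 and 3294 kept spots. These are shares of 2.32% (1.82 to 2.92), 3.31% (2.68 to 4.04), 3.25% (2.69 to 3.90) and 4.86% (4.15 to 5.65), so set 4 had the highest share and set 1 the lowest. With the choroid spots kept, sets 1 and 3 were at 4.81 and 5.40%, so this order depends on leaving those spots out. The ependymal-marker spots numbered 41, 66, 58 and 117, and the neuroblast-marker spots 30, 62, 58 and 83. Spots that met both rules numbered 0, 35, 4 and 40, which is 0, 53.0, 6.90 and 34.2% of the ependymal-marker spots and 0, 56.5, 6.90 and 48.2% of the neuroblast-marker spots. Both signatures often fell in one member spot in sets 2 and 4, and rarely or never did in sets 1 and 3. The choroid rule had first left out 76, 3, 74 and 8 spots that met a member rule. Of these, 66, 3, 63 and 8 met the ependymal rule and 25, 2, 34 and 0 the neuroblast rule. Some of those left out in sets 1, 2 and 3 thus met both, so these numbers hold for members only. Values for spots that met both rules are given below for sets 2 and 4 only, because fewer than 10 such members were found in the other sets.

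**Figure D1:**
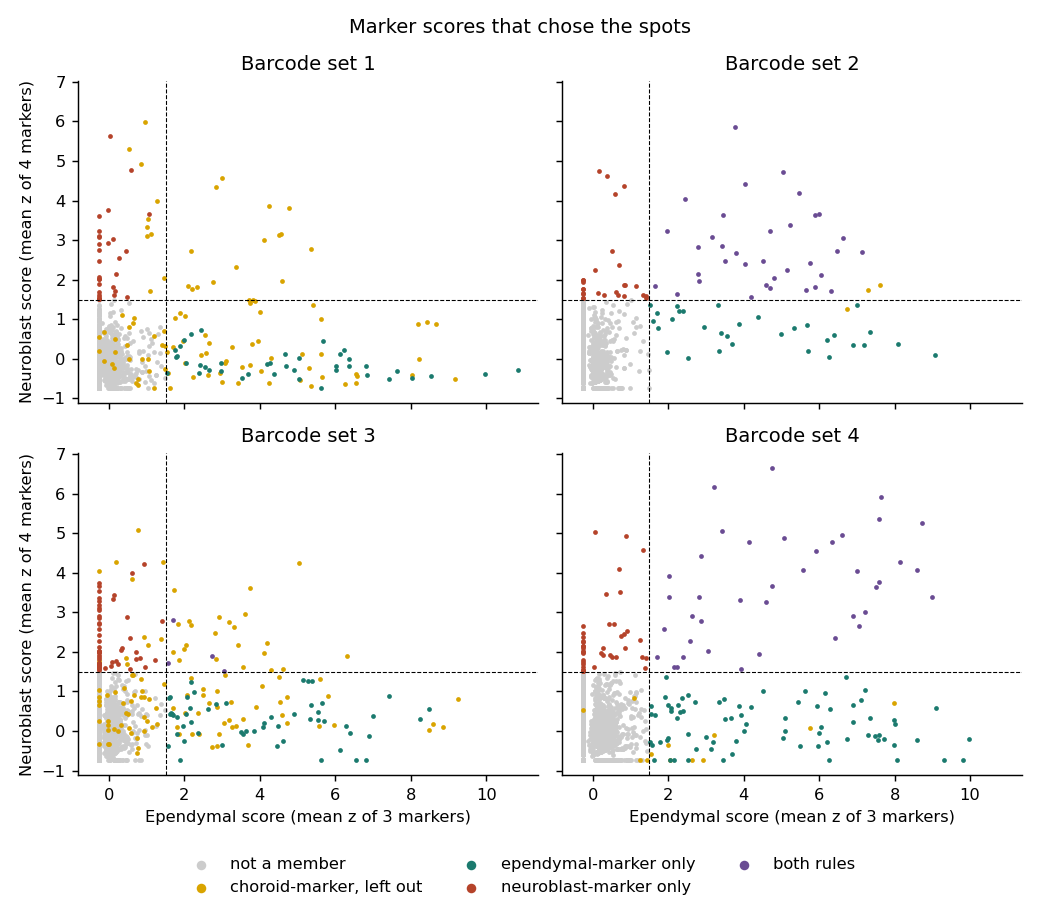
Mean z of the ependymal markers (horizontal axis, in standard deviations) against mean z of the neuroblast markers (vertical axis) for the kept spots of each barcode set, with members coloured by the rule they met and dashed lines at the threshold of 1.5. The quadrant above both thresholds holds 35 and 40 members in sets 2 and 4, and 0 and 4 in sets 1 and 3.

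The scores ran on without a gap at the threshold. Among ependymal-marker spots the lowest mean z was 1.5, the median 4.19 and the highest 10.8, and the highest spot outside was also at 1.5 after rounding. Within 0.25 of the threshold lay 22 spots inside and 34 outside. The neuroblast score was less separated, with a median of 2.24 and a highest value of 6.65, and 56 spots lay within 0.25 inside and 104 outside. The 436 members carried 424 different barcodes, of which 412 were used in 1 set and 12 in 2 sets. Over all kept spots, 1613 of 4743 barcodes recurred in all 4 sets, since each capture area holds the same barcode layout.

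Members were shallower than the rest of the tissue. The median count per spot in members was 43553, 26376, 25216.5 and 19262.5, against 52283.5, 38446.5, 45426 and 26746 in the other kept spots that were neither members nor choroid spots, which are called other spots from here on. The summed counts behind each set's members were 3534454, 2715612, 3176820 and 3414142. All levels below are counts per 1000000 (CPM) of the counts summed over the named spots of a set. A level in such a sum moves both with the number of cells of a type and with the RNA per cell, and these cannot be told apart.

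The genes of the rule, given as a description, separated both kinds of spot. Ccdc153, a gene of motile cilia, read 541, 324, 393 and 440.4 CPM in spots that met only the ependymal rule, against 4.55, 20.7, 11.3 and 16.9 CPM in spots that met only the neuroblast rule and 1.66, 0.627, 1.10 and 1.75 CPM in other spots. Thbs4, a secreted thrombospondin of the neurogenic astrocytes, read 255, 114, 286 and 139 CPM in neuroblast-only spots, against 4.10, 21.8, 8.99 and 6.09 CPM in ependymal-only spots and 4.25, 2.39, 3.80 and 2.79 CPM in other spots. Dcx, which marks migrating neuroblasts, was less selective, at 136, 109.5, 116 and 135 CPM in neuroblast-only spots and 44.1, 35.3, 53.9 and 35.3 CPM in other spots. Lists of cell type markers that the rule did not use are described below for both kinds of spot.

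Choroid plexus lies inside the ventricles, and its marker Ttr was higher in both marker-only kinds of spot than in other spots in every set. Choroid spots numbered 102, 3, 115 and 12, and of these 76, 3, 74 and 8 would otherwise have been members. Ttr, the thyroid hormone carrier made by the choroid plexus, stood at 2869, 71.8, 2833 and 46.5 CPM in neuroblast-only spots and at 1136, 143, 763 and 468 CPM in ependymal-only spots. In other spots it was 259, 8.68, 220 and 27.2 CPM, and in the choroid spots of sets 1, 3 and 4 it was 150676, 146079 and 189978 CPM. The retained members of sets 1 and 3 thus held more Ttr than those of sets 2 and 4, in parallel with the Ttr of the other spots. Kl and Folr1, which are less abundant choroid genes, were at 3.66 to 6.22 and 17.1 to 23.0 CPM in ependymal-only spots. In other spots they were at 1.49 to 2.00 and 0.930 to 1.23 CPM. The part of choroid RNA in the results was not tested.

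Celsr3 itself, the gene targeted in the heterozygous mice, differed little in summed level between the members and the rest of the tissue. In ependymal-marker spots it read 33.7, 59.7, 28.3 and 53.5 CPM, and in neuroblast-marker spots 25.5, 62.9, 31.8 and 56.4 CPM, against 32.4, 46.5, 26.4 and 47.0 CPM in other spots. Sets 2 and 4 were higher than sets 1 and 3 in each of these 3 kinds of spot. The ratio of ependymal-marker to other spots was 1.04 (0.824 to 1.29), 1.28 (1.05 to 1.55), 1.07 (0.781 to 1.44) and 1.14 (0.948 to 1.35). The ratio for neuroblast-marker spots was 0.787 (0.522 to 1.14), 1.35 (1.11 to 1.63), 1.20 (0.905 to 1.57) and 1.20 (0.973 to 1.46), with set 2 alone clear of 1 by counting error in both comparisons. Within the choroid spots of sets 1, 3 and 4, Celsr3 was lower, at 18.3, 15.3 and 3.78 CPM. With spots thinned to equal depth, as for Mki67 below, Celsr3 was found in 16.7, 26.9, 9.26 and 28.2% of neuroblast-only spots. Other spots were higher in every set, at 26.1, 35.4, 23.0 and 36.8%, outside the neuroblast-only interval in set 3 only (3.08 to 20.3%). Ependymal-only spots were at 26.8, 45.2, 24.5 and 43.3%, and spots with both rules at 52.9 and 39.5% in sets 2 and 4. The summed log2 ratio of ependymal-only to neuroblast-only spots ran from -0.220 to 0.387.

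Its paralogs went separate ways. Celsr1, the family member best known from epithelia and from ependymal polarity, read 29.6, 21.1, 23.3 and 20.3 CPM in ependymal-marker spots and 37.3, 24.5, 39.3 and 15.8 CPM in neuroblast-marker spots, against 2.88, 2.79, 4.56 and 2.45 CPM in other spots. The lowest member value exceeded the highest value of the other spots. Its ratio to other spots was 10.3 (7.89 to 13.2), 7.58 (5.31 to 10.6), 5.11 (3.57 to 7.11) and 8.28 (5.96 to 11.3) in ependymal-marker spots and 13.0, 8.78, 8.62 and 6.46 in neuroblast-marker spots. In spots that met only the ependymal rule Celsr1 stood at 29.6, 12, 24.9 and 17.1 CPM and in spots that met only the neuroblast rule at 37.3, 18.3, 42.2 and 6.35 CPM, so that neither kind was higher in every set. Choroid spots, too, held Celsr1, at 30.7, 29.0 and 37.8 CPM in sets 1, 3 and 4. Celsr2, which is abundant in neurons and glia, lay below the other spots in all 4 sets without reaching the fold of 2 in each, at 78.8, 111, 118 and 89.9 CPM in ependymal-marker spots, 61.0, 112, 119 and 103 CPM in neuroblast-marker spots and 192, 174, 206 and 161 CPM elsewhere.

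A gene is called higher or lower in this text when its log2 ratio, taken after adding 1 CPM to both levels, was at least 1 in size in the same direction in all 4 sets, for genes whose level averaged 10 CPM or more over the kinds of spot compared. Of the planar polarity list, 3 of 15 compared genes were higher in ependymal-marker spots by this measure, where 5.44% of all compared genes were (581 of 10685), and the list's median log2 ratio was 0.33 beside 0.12 over all genes. These were Celsr1 (median over the sets 2.59), Dchs1, the large protocadherin partner of Fat4 (2.04), and Vangl1, a membrane protein of the core polarity complex (1.65). Dchs1 read 44.7, 37.0, 32.7 and 41.3 CPM in ependymal-marker spots and 9.20, 9.0, 7.90 and 7.90 CPM in other spots. Vangl1 read 29.6, 8.45, 24.5 and 16.6 CPM against 8.40, 2.11, 5.02 and 5.29 CPM. Both were higher in every set, and the lowest member level of Vangl1, in set 2, lay just above the highest level of the other spots, in set 1. Prickle1, a cytoplasmic core component, was at ratios of 0.660, 0.316, 0.335 and 0.572 in ependymal-marker spots and missed the fold of 2 in sets 1 and 4.

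In neuroblast-marker spots 2 of 14 compared polarity genes were higher, Celsr1 at a median log2 ratio of 2.80 and Dchs1 at 1.61. The background there was 2.8% (294 of 10504 genes), and the list's median was 0.22 beside 0.06 over all genes. The summed level of the list was 896, 903, 911 and 872 CPM in ependymal-marker spots and 892, 879, 906 and 863 CPM in other spots, so the sums lay close together while Celsr1, Dchs1 and Vangl1 were higher in the members.

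**Figure D2:**
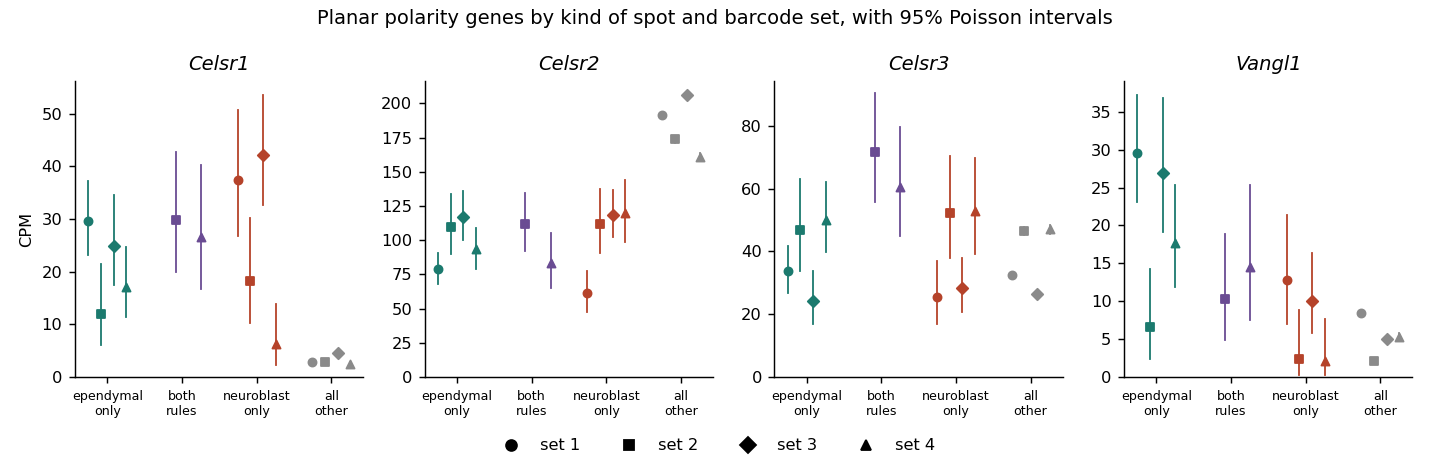
Level in CPM (vertical axes from 0) of Celsr1, Celsr2, Celsr3 and Vangl1 in each kind of spot, 1 point per barcode set. Celsr1 is at 12 to 29.6 CPM in ependymal-only spots against 2.45 to 4.56 CPM in other spots. Celsr2 is lower in members than in other spots, and Celsr3 shows no gap like that of Celsr1.

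Genes of the motile cilium were higher in ependymal-marker than in other spots. Of 10685 compared genes, 581 were higher (5.44%) and 212 lower (1.98%) than in other spots in all 4 sets. With scaling by trimmed means (TMM) in place of total counts the median log2 ratio of all genes moved from 0.12 to -0.13 and the calls from 581 and 212 to 425 and 372, a share of higher calls of 53.3% in place of 73.3%. Without set 2, 319 genes were lower. The spots were chosen by 3 cilium genes, so ratios of other genes in the same spots describe these spots, with no test.

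The motile cilium list held 56 genes, of which 52 were in the file and 47 passed the minimum level. Other spots hold little of most of these genes, so many passed the minimum only through their level in the members. All 47 were higher in ependymal-marker spots, and without the minimum 51 of 52 were, with a median log2 ratio over the 47 of 4.32 and set medians of 4.92, 4.20, 4.39 and 4.03. Ak7, an adenylate kinase of the axoneme, read 275, 103, 158 and 123 CPM in ependymal-marker spots and 1.29, 0.870, 1.05 and 1.14 CPM in other spots. No set overlapped, and the ratios were 213 (182 to 249.7), 119 (92.5 to 154), 151 (123 to 184) and 108 (85.8 to 137). Dnali1, a light intermediate chain of axonemal dynein, read 154, 189, 121 and 173 CPM against 0.742, 1.19, 1.02 and 1.39 CPM. Hydin, a protein of the central pair apparatus whose loss causes hydrocephalus, read 50.1, 19.5, 30.2 and 14.6 CPM against 0.258, 0.468, 0.303 and 0.609 CPM. Cfap65, another axonemal protein, read 296, 192, 209.5 and 205 CPM against 2.56, 3.25, 3.27 and 3.62 CPM. Set 1 members were the highest for Ak7, Hydin and Cfap65 and set 2 members for Dnali1, and other spots were far lower in every set.

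Genes of the same class led the whole table. The 15 genes whose lowest ratio over the sets was highest were Dnali1, Unc5cl, Ak7, Fam216b, 2410004P03Rik, Ccdc33, Odf3b, Ttc21a, Cfap65, Tctex1d4, Dynlrb2, Calml4, Cfap126, Lrrc36 and Dnah12, with median log2 ratios from 5.49 for Ttc21a to 6.31 for Dnali1. Dnali1, Dynlrb2 and Dnah12 are dynein chains, and Cfap65 and Cfap126 are cilia and flagella associated proteins. Unc5cl is a death-domain protein, and Calml4 a calmodulin-like protein that was also abundant in choroid spots, at 386, 334 and 537 CPM in sets 1, 3 and 4. Summed over the list, motile cilium RNA stood at 6367, 4187, 4827 and 4498 CPM in ependymal-marker spots and 338, 309, 347 and 356 CPM in other spots, and reached 4254, 3267 and 3658 CPM in the choroid spots of sets 1, 3 and 4.

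Many cilium genes carry an X-box, the site read by the RFX factors, close to their start. The following 60 bases end just before the start site of 6 cilium genes that were higher in ependymal-marker spots. They are given 5′ to 3′ on the strand of the gene, from RefSeq on GRCm38.p6. These genes were picked from the motile cilium list because an X-box match lies wholly within these 60 bases. That a match recurs near the start in all of them follows from this choice. The capitals mark a match to the X-box, searched as the half-sites GTNNCC and GNAAC with 3 bases between them, N being any base, on either strand. The half-sites read in this order as printed in Pifo, and on the opposite strand in the other genes shown. Hydin lies at chr8:110266917-110266976 (plus strand), Cfap44 at chr16:44394739-44394798 (plus), Cfap45 at chr1:172521070-172521129 (plus), Cfap206 at chr4:34730207-34730266 (minus), Kif9 at chr9:110476934-110476993 (plus) and Pifo at chr3:106001498-106001557 (minus).
Hydin: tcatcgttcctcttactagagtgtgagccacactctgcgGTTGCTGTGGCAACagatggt
Cfap44: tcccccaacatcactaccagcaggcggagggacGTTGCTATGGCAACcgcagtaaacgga
Cfap45: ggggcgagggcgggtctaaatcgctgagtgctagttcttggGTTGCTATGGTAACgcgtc
Cfap206: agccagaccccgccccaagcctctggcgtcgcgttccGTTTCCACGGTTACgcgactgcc
Kif9: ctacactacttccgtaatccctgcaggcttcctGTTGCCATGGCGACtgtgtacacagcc
Pifo: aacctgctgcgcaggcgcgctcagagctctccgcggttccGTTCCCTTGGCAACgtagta

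The motif ends 7 bases before the start in Hydin, 13 in Cfap44, 5 in Cfap45, 9 in Cfap206, 13 in Kif9 and 6 in Pifo. Median log2 ratios of these genes in ependymal-marker spots were 4.19, 4.26, 4.37, 4.26, 3.31 and 4.61. The window searched ran from 250 bases before to 50 after each start, and no other motif was searched. Of 581 genes higher in ependymal-marker spots, 450 had a promoter in the RefSeq table, and 52 of these (11.6%) held the motif. The share was 3.71% of the compared genes (314 of 8469), 2.49% of all promoters in the table (673 of 27025) and 2.39% of the genes higher in neuroblast-marker spots (5 of 209). In the motile cilium list 11 of 41 promoters held it (26.8%). In 30 of these 52 genes (57.7%) a match began within 50 bases upstream of the start, against 90 of 314 among all compared genes (28.7%). A match to these letters is a description of the sequence and not a measured binding site.

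Regulators of the multiciliated state were partly higher. Of 15 genes in the file 8 passed the minimum level, and Myb, Trp73 and Rfx2 did so only through their level in the members. Of these 8 genes 4 were called higher, beside 5.44% of all compared genes, and the list's median was 1.01. Without the minimum 5 of 15 were higher, with a median of 0.71. Myb, a transcription factor of multiciliated cell differentiation, read 69.4, 48.0, 47.8 and 53.5 CPM in ependymal-marker spots and 1.07, 1.17, 0.798 and 1.42 CPM in other spots, a ratio of 64.6, 41.1, 59.9 and 37.5. Trp73, the p53 relative that acts upstream of ciliation genes, read 42.3, 25.9, 52.2 and 50.2 CPM against 2.18, 1.56, 1.78 and 2.18 CPM. Rfx2, a factor that binds the X-box, read 36.9, 48.0, 37.8 and 53.1 CPM against 2.89, 3.80, 3.08 and 4.03 CPM. Each of these 3 was higher than all other-spot values in every set. Rfx4 followed at a median log2 ratio of 1.21. Rfx3, a further ciliary RFX factor, was at 105, 62.3, 94.4 and 52.3 CPM against 52.1, 34.5, 54.5 and 29.8 CPM, with log2 ratios of 0.78 to 1.00, and was not called. Rfx1 (0.71), E2f5 (0.18) and E2f4 (-0.21) were not called either.

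Genes of the ependymal surface and secretion formed the next group, with 9 of 14 compared genes higher, beside 5.44% of all compared genes, and a median of 2.58. Rarres2, which encodes the secreted chemerin, read 589, 559.6, 402 and 680.5 CPM in ependymal-marker spots, 9.91, 14.0, 11.2 and 16.0 CPM in other spots and 13.7, 112, 24.6 and 55.0 CPM in neuroblast-only spots. Its ratios to other spots were 59.5, 40.0, 35.9 and 42.6. Mia, a small secreted protein, read 142, 67.1, 86.8 and 85.1 CPM against 1.99, 2.00, 3.41 and 1.53 CPM. Mia stood at 142, 129.7 and 181 CPM in choroid spots, so it is not limited to the ependymal lining here. Anxa2 (3.56), Cd24a (3.16), a surface protein of both ependymal cells and neuroblasts, the intermediate filament Vim (3.07), Nnat (3.03), Pltp (2.71), the transition zone protein Tmem107 (2.45) and S100a6 (1.78) were higher as well, in median log2 ratio.

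**Figure D3:**
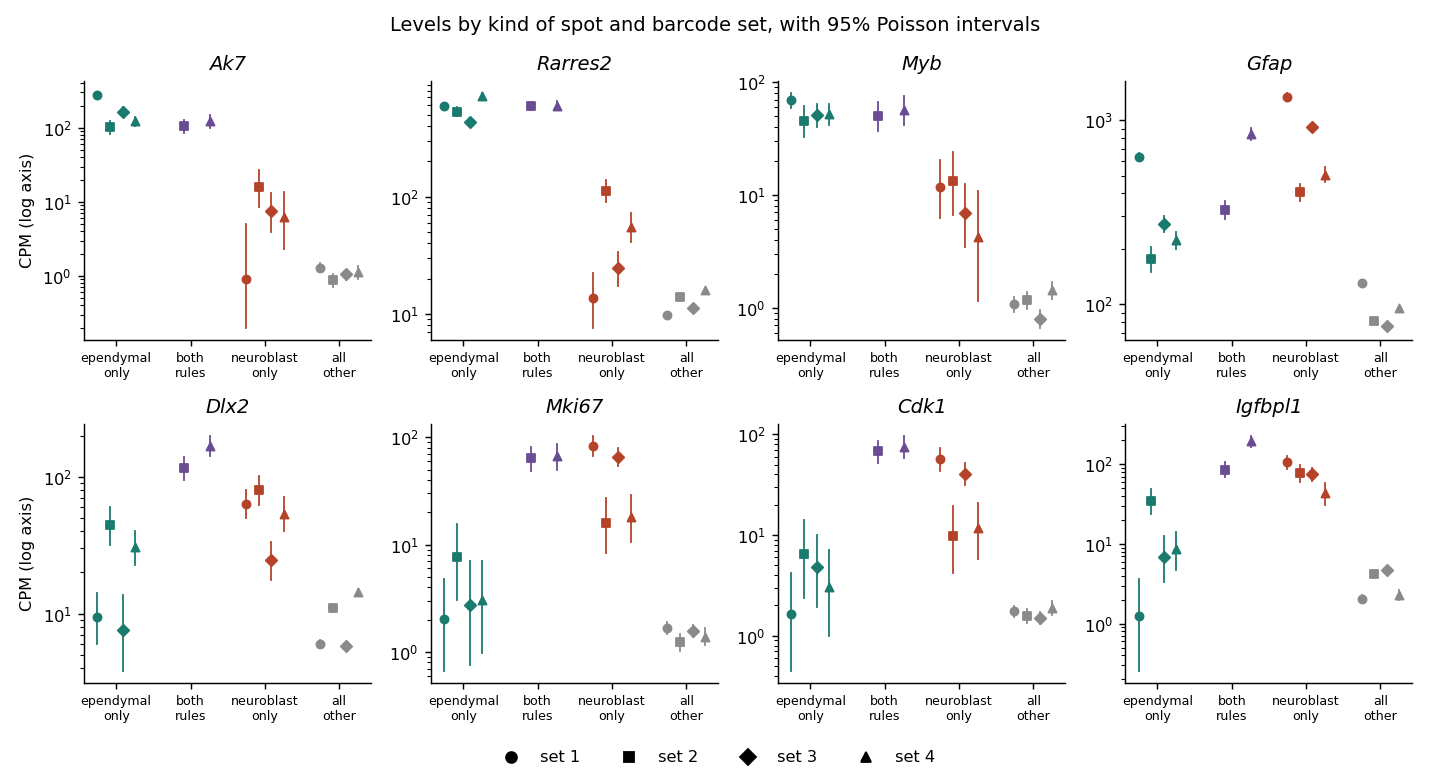
Level in CPM (logarithmic vertical axes) of Ak7, Rarres2, Myb, Gfap, Dlx2, Mki67, Cdk1 and Igfbpl1 by kind of spot, 1 point per barcode set. Ak7 is at 102 to 275 CPM in ependymal-only spots and 0.870 to 1.29 CPM in other spots, and Mki67 is at 63.6 and 66.5 CPM in the spots of sets 2 and 4 that met both rules.

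Among niche receptors and their targets 3 of 20 compared genes were higher in ependymal-marker spots, beside 5.44% of all compared genes. Cxcr4, the receptor for the chemokine Cxcl12, read 29.1, 32.2, 18.9 and 23.5 CPM in ependymal-marker spots and 14.6, 30.6, 13.9 and 23.1 CPM in neuroblast-marker spots, against 1.85, 1.75, 1.22 and 1.70 CPM in other spots. Smo, the Hedgehog signal transducer, read 42.3, 30.6, 34.6 and 39.3 CPM against 12.7, 11.3, 10.0 and 12.7 CPM, and Gli1, a Hedgehog target, 14.0, 12.7, 25.8 and 13.4 CPM against 4.24, 4.11, 3.33 and 5.18 CPM. These 3 genes were higher in every set. Among niche ligands 1 of 15 was higher, namely Bmp6, a bone morphogenetic protein, at 47.2, 71.8, 35.2 and 45.0 CPM against 11, 12.8, 10.5 and 9.19 CPM. In neuroblast-marker spots 2 of 18 receptors and targets were higher, Cxcr4 (2.95) and Notch1 (1.97), beside 2.8% of all compared genes, and 2 of 16 ligands, Bmp6 (1.77) and the Notch ligand Dll1 (1.28).

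Cell division and progenitor genes were higher in neuroblast-marker than in other spots. Of 10504 compared genes, 294 were higher (2.8%) and 175 lower (1.67%) than in other spots in all 4 sets. TMM scaling moved the median log2 ratio of all genes from 0.06 to -0.15 and the calls to 190 higher and 338 lower, a share of higher calls of 36.0% in place of 62.7%. Without set 2, 522 genes were higher. These comparisons share the other spots with those of the ependymal-marker spots, and 79 spots belong to both kinds.

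The cell cycle list held 22 genes, of which 20 were in the file and 11 passed the minimum level, here too largely through the members. All 11 were higher in neuroblast-marker spots, with a median log2 ratio of 2.73, and without the minimum 18 of 20 were. Mki67, the proliferation antigen Ki-67, read 83.8, 41.7, 70.5 and 40.6 CPM against 1.68, 1.23, 1.58 and 1.39 CPM in other spots. No set overlapped, and the ratios were 49.9 (38.9 to 63.4), 33.8 (25.1 to 45.2), 44.7 (35.7 to 55.8) and 29.2 (21.5 to 39.5). Cdk1, the mitotic kinase, read 56.5, 41.2, 41.6 and 41.2 CPM against 1.75, 1.57, 1.51 and 1.88 CPM, and Top2a, which untangles replicated DNA, 58.3, 23.4, 26 and 15.2 CPM against 1.19, 0.758, 0.985 and 0.953 CPM. Nusap1 (3.49), Ccna2 (2.78), Cdca8 (2.73), the replication helicase genes Mcm3 (2.62), Mcm2 (2.26), Mcm6 (2.09) and Mcm5 (1.91), and Tyms (2.34), which makes thymidylate, completed the list in median log2 ratio.

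Replication-dependent histone genes led the table. The 15 genes whose lowest ratio over the sets was highest were Hist1h3b, Hist1h3c, Hist1h2bk, Mki67, Cdk1, Igfbpl1, Draxin, Hist1h1b, Ecrg4, Cdca3, Uhrf1, Hist1h2bb, Hist1h2ag, Hist1h2bj and Top2a. Hist1h3b read 367, 223, 237 and 209 CPM in neuroblast-marker spots and 4.11, 3.54, 3.67 and 3.09 CPM in other spots, with members higher in every set. Hist1h3c read 449, 33.4, 253 and 36.1 CPM against 5.44, 0.832, 4.55 and 0.873 CPM, and its level was higher in sets 1 and 3 than in sets 2 and 4 in both kinds of spot. Clustered histone genes are near-identical copies, and how probes divide them is uncertain. Uhrf1 is the factor that keeps DNA methylation through replication.

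Genes of progenitors, stem cells and neuroblasts were in part higher. The transit-amplifying list had 7 of 8 higher, beside 2.8% of all compared genes, with a median of 1.57. Dlx2, a homeobox gene of progenitors and neuroblasts, read 63.8, 99.6, 26.6 and 108 CPM in neuroblast-marker spots and 6.03, 11, 5.83 and 14.4 CPM in other spots. Members were higher in every set, with set 3 the lowest. Insm1 (2.45), Sp9 (1.69), Olig2 (1.45), the growth factor receptor Egfr (1.39) and Dll1 (1.28) were among the other higher genes. Dlx2 belongs to 1 family with Dlx1 of the rule.

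In the neural stem cell list 10 of 22 were higher, with a median of 1.21. Gfap, the filament of astrocytes and neural stem cells, read 1339.8, 363, 853 and 663 CPM in neuroblast-marker spots and 131, 80.8, 75.8 and 95.1 CPM in other spots, a ratio of 10.3, 4.49, 11.3 and 6.97. Sets 1 and 3 had the highest members. Tnc, an extracellular protein of the zone, was higher in every set at a median log2 ratio of 2.63. Id3 (2.00), Notch1 (1.97), Notch2 (1.72), Sox9 (1.65), Nes (1.55), Sox2 (1.48), Egfr (1.39) and Msi1 (1.25) followed. In ependymal-marker spots 6 of 21 of this list were higher, namely Sox9 (2.13), Gfap (1.97), Sox2 (1.51), Lfng (1.35), Notch2 (1.27) and Msi1 (1.22). The astrocyte list as a whole gave 1 of 12 higher in neuroblast-marker spots, Gfap, and 2 of 12 in ependymal-marker spots, Gfap and Mlc1 (1.30). Over all compared genes these shares were 2.8% and 5.44%.

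The neuroblast list had 10 of 23 higher with a median of 1.18. Igfbpl1, a marker of immature neurons, read 106, 82.4, 82.1 and 114 CPM in neuroblast-marker spots and 2.04, 4.22, 4.76 and 2.31 CPM in other spots, with ratios of 51.7, 19.5, 17.2 and 49.4. Draxin, an axon guidance protein, read 45.5, 23.4, 37.6 and 47.4 CPM against 0.754, 1.02, 1.20 and 1.47 CPM. Both were higher in every set. Sp8 (2.79), a factor of olfactory interneurons, Cd24a (2.40), Sox4 (2.34), Pou3f4 (1.92), Pax6 (1.88), Sp9 and Dlx2 were among the remaining higher genes. In ependymal-marker spots 2 of 22 were higher, Cd24a and the prokineticin receptor Prokr2 (2.09), beside 5.44% of all compared genes.

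Cycling genes took different places in different sets. In spots that met only the neuroblast rule Mki67 read 83.8, 15.8, 66.1 and 18.0 CPM, and in spots that met both rules 63.6 and 66.5 CPM in sets 2 and 4. In ependymal-only spots it read 2.05, 7.62, 2.77 and 3.05 CPM. In sets 2 and 4 the spots with both signatures thus held more Mki67 than the neuroblast-only spots of the same sets, and came near the level of the neuroblast-only spots of sets 1 and 3. The same order was seen for Cdk1, at 56.5, 9.74, 40.3 and 11.6 CPM in neuroblast-only spots and 67.7 and 74.9 CPM in spots with both. Summed over the cell cycle list, neuroblast-only spots stood at 649, 197, 415 and 201 CPM, spots with both at 638 and 656 CPM, ependymal-only spots at 82.1, 157, 91.3 and 88.9 CPM and other spots at 48.4, 49.2, 50.8 and 53.7 CPM. The choroid spots of sets 1, 3 and 4, left out of the members, stood at 330.2, 303 and 56.7 CPM for this list. Igfbpl1 read 106, 77.9, 75.0 and 43.4 CPM in neuroblast-only spots and 86.1 and 195 CPM in spots with both.

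To compare shares of spots at equal depth, each spot was thinned to 10000 counts. Mki67 was then found in 43.3%, 11.5%, 33.3% and 20.5% of neuroblast-only spots, in 47.1% and 42.1% of spots with both rules in sets 2 and 4, in 2.44%, 6.45%, 3.77% and 0% of ependymal-only spots and in 2.05%, 1.41%, 2.12% and 1.21% of other spots. Without thinning the shares were 73.3%, 22.2%, 55.6% and 23.3% in neuroblast-only spots, 71.4% and 62.5% in spots with both, 12.2%, 19.4%, 7.41% and 6.49% in ependymal-only spots and 6.90%, 4.20%, 5.91% and 3.65% in other spots. The 0 of 67 thinned ependymal-only spots in set 4 allows a share of up to 5.36%. Left out as too shallow were 0, 1, 0 and 4 neuroblast-only spots, 1 and 2 spots with both rules, and 0, 0, 1 and 10 ependymal-only spots. Shares in other spots, at 1.21 to 2.12%, are the background for this gene.

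The 2 marker-only kinds of spot were then compared directly. Of 10807 compared genes, 305 were higher in ependymal-only spots (2.82%) and 154 lower (1.43%) in all 4 sets, and without set 2 these were 477 and 319. Motile cilium genes made up 45 of 48 compared on the higher side, with a list median of 3.13. Bbox1, the last enzyme of carnitine synthesis, read 74.3, 49.0, 49.1 and 46.9 CPM in ependymal-only and 5.46, 3.65, 3.78 and 4.23 CPM in neuroblast-only spots, higher in every set. Ccdc180, named with Nme9, 1700012B09Rik, Prr29, Ppp1r36, Oxt, Dnali1 and Bbox1 among the 8 genes with the largest difference in their weakest set on the higher side, read 39.4, 18.5, 29.0 and 23.8 CPM against 1 count in set 1 and 0 counts in sets 2, 3 and 4. Of the surface list 7 of 14 were higher.

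On the lower side the 8 genes with the largest difference in their weakest set were Hapln2, Cplx3, Ppp1r14a, Fam83d, Nipal4, Rapgef4, Tnfaip6 and Plekhh1. Hapln2, a link protein of the nodes of Ranvier made by oligodendrocytes, read 83.3, 9.80, 40.8 and 44.5 CPM in ependymal-only and 352, 136, 249 and 288 CPM in neuroblast-only spots. Cplx3, a complexin of deep cortical subplate neurons, read 0.410, 3.27, 4.15 and 4.26 CPM against 10.9, 19.5, 20.2 and 58.2 CPM. Tnfaip6, a hyaluronan-binding protein, read 38.6, 4.36, 16.6 and 16.4 CPM against 151, 36.5, 70.5 and 62.4 CPM. All 3 were lower in ependymal-only spots in every set. Of the myelinating oligodendrocyte list 12 of 12 compared genes were lower in ependymal-only spots, where 1.43% of all compared genes were, with a list median of -2.32 and set medians of -1.68, -4.04, -2.60 and -1.99. Of the oligodendrocyte precursor list 3 of 9 were lower. The cell cycle list had 0 of 10 genes lower in all 4 sets, with set medians of -2.95, -0.40, -2.40 and -1.11, so the difference between the 2 kinds was small in set 2 and large in sets 1 and 3.

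Markers of the surrounding tissue differed between the 2 kinds of spot and between sets. A spot was counted for a region when the mean z of that region's list reached 1. The hypothalamus and preoptic list reached this in 41.5%, 45.2%, 50% and 61.0% of ependymal-only spots, 0%, 25.9%, 1.85% and 11.6% of neuroblast-only spots and 6.35%, 7.67%, 7.58% and 8.30% of other spots, where the 0 of 30 neuroblast-only spots in set 1 allows up to 11.6%. In spots with both rules the shares were 2.86% and 2.5% in sets 2 and 4. In ependymal-marker spots 5 of 8 genes of that list were higher, beside 5.44% of all compared genes. Among them were Oxt, the oxytocin gene of the paraventricular and supraoptic nuclei, and the neuropeptide gene Gal (2.54). Oxt read 3836, 3161, 2054 and 8327 CPM in ependymal-only spots, 1.82, 319, 1.26 and 64.5 CPM in neuroblast-only spots and 473, 184, 120.4 and 609.7 CPM in other spots. Set 4 was the highest in ependymal-only and other spots, and set 2 in neuroblast-only spots. Irs4 (2.14), Hap1 (1.52) and Peg10 (1.52) were the other 3. In neuroblast-marker spots 0 of 8 of the list were higher, beside 2.8% of all compared genes, and the set medians were -3.62, 1.28, -0.31 and 0.13. The rule does not tell one ventricle from another, and the part of hypothalamic or preoptic tissue in the ependymal results was not tested.

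Myelin RNA moved the other way. The myelinating oligodendrocyte list reached a mean z of 1 in 96.7%, 37.0%, 68.5% and 51.2% of neuroblast-only spots, 31.7%, 0%, 9.26% and 9.09% of ependymal-only spots and 21.6%, 7.45%, 8.55% and 13.5% of other spots, where the 0 of 31 ependymal-only spots in set 2 allows up to 11.2%. Summed, it stood at 99000.0, 26524, 41768 and 37279 CPM in neuroblast-only, 30686, 1848, 7307 and 9361 CPM in ependymal-only and 17986, 9686, 9445 and 12968 CPM in other spots. Of 12 compared genes 4 were higher in neuroblast-marker spots, Cldn11 (2.02), Mobp (1.91), Opalin (1.90) and Aspa (1.72), and 0 of 12 in ependymal-marker spots. Over all compared genes these shares were 2.8% and 5.44%. Set 1 had the most myelin RNA in both kinds of marker-only spot and set 2 the least, and its part in the results was not tested.

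**Figure D4:**
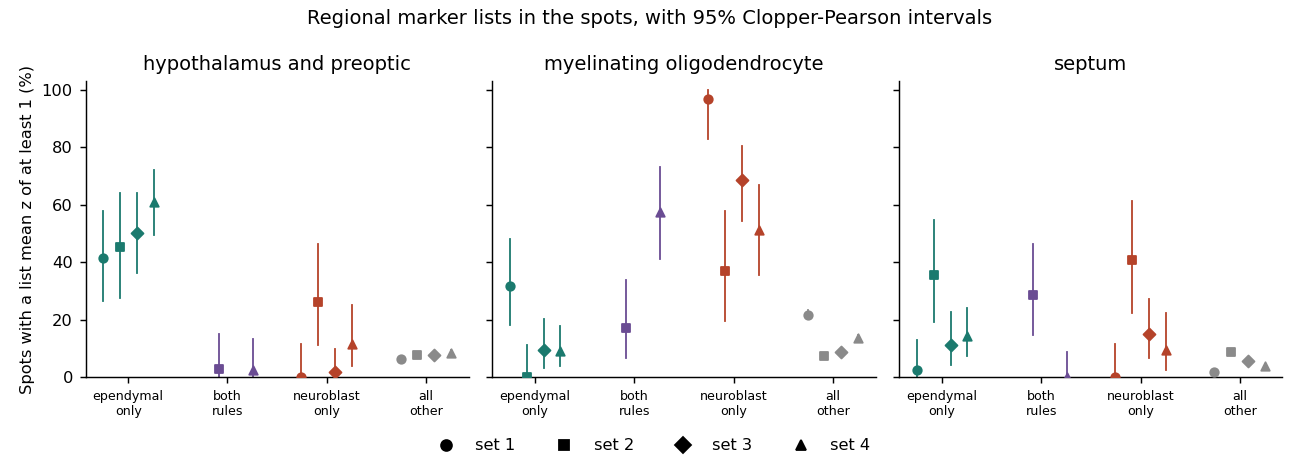
Share of spots in percent whose mean z for a list of region markers reached 1, by kind of spot and barcode set, for the hypothalamus and preoptic, myelinating oligodendrocyte and septum lists. Hypothalamic markers are frequent in ependymal-only spots, and myelin markers in neuroblast-only spots.

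Septal markers reached a mean z of 1 in 2.44%, 35.5%, 11.1% and 14.3% of ependymal-only spots, 0%, 40.7%, 14.8% and 9.30% of neuroblast-only spots and 1.70%, 8.55%, 5.56% and 3.72% of other spots, and in 28.6% and 0% of spots with both rules in sets 2 and 4. The 0 of 30 in set 1 and 0 of 40 in set 4 allow up to 11.6 and 8.81%. Set 2 was the highest in each kind of spot. Zic4, a septal zinc finger gene, was higher in ependymal-marker spots (2.38). Part of the cortical neuron genes were lower in the members. In the cortical excitatory neuron list 5 of 10 were lower in ependymal-marker and 5 of 10 in neuroblast-marker spots. Of all compared genes 1.98% were lower in ependymal-marker and 1.67% in neuroblast-marker spots. Slc17a7, the vesicular glutamate transporter of cortex, read 14.8, 7.92, 37.8 and 194 CPM in ependymal-marker and 148, 45.6, 169 and 318 CPM in neuroblast-marker spots, against 1236, 1383, 1379.7 and 1192 CPM in other spots, with set 4 the highest among members. Neurod6 (-4.63), Neurod2 (-4.23) and Tbr1 (-3.07) were among the other lower genes in ependymal-marker spots. Nrn1 (-3.69), Tbr1 (-3.05), Neurod6 (-2.63) and Neurod2 (-2.45) were those in neuroblast-marker spots. The striatal projection neuron list had 1 of 11 lower in ependymal-marker spots, the sodium channel subunit Scn4b (-3.53), with a list median of -1.71, and 0 of 12 in neuroblast-marker spots, with a list median of -0.43.

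On the lower side of the whole table, the 8 genes whose highest ratio over the sets was lowest in ependymal-marker spots included Igfbp6, Adra1d, Neurod6, Igfn1, Neurod2, Gm11549 and Slc17a7. Those in neuroblast-marker spots were Rtn4rl2, Slc30a3, Pvalb, Nrn1, Igfn1, Adra1d, Rtn4r and Cck. Pvalb, the calcium buffer of fast-spiking interneurons, read 10.9, 17.8, 15 and 45.1 CPM in neuroblast-marker spots and 275, 168, 176 and 403 CPM in other spots. Cck, a neuropeptide gene of cortical neurons, read 92.0, 22.3, 77.4 and 132 CPM against 631, 716, 571 and 769 CPM. Both were lower than in any other-spot set.

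**Figure D5:**
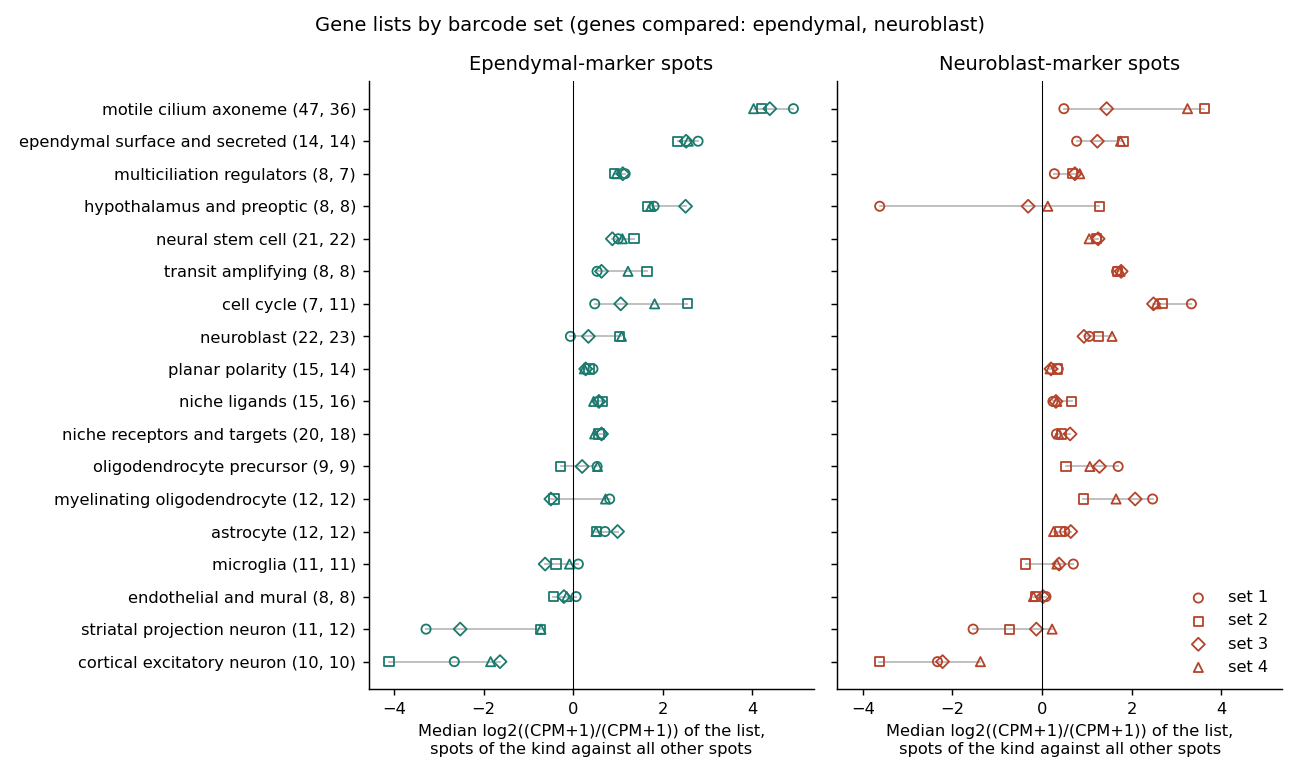
Median log2 ratio to other spots (horizontal axis) of 18 gene lists in ependymal-marker spots and in neuroblast-marker spots, 1 point per barcode set. Motile cilium genes are at 4.03 to 4.92 in every set of ependymal-marker spots, and in neuroblast-marker spots they spread from 0.49 to 3.63.

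More genes differed between the barcode sets inside the members than in other spots, for each pair of sets. Between sets 1 and 3, 479 of 10952 genes were at least 2-fold apart in ependymal-marker spots (4.37%), against 50 of 10084 in other spots (0.496%). Between sets 2 and 4 these were 511 (4.67%) and 69 (0.684%). The remaining pairs were further apart in both. In ependymal-marker spots 16.9% of genes were apart between sets 1 and 2, 11.8% between 1 and 4, 12.8% between 2 and 3, and 11.3% between 3 and 4. In other spots the same pairs were at 6.38, 7.12, 4.03 and 5.37%. In neuroblast-marker spots 30.4% of 10747 genes were apart between sets 1 and 2, 25.1% between 1 and 4, 14.9% between 1 and 3, 13% between 2 and 3, 11% between 3 and 4, and 3.57% between 2 and 4. The choroid spots of sets 1, 3 and 4 differed as well, with 30.8% of 10599 genes apart between sets 1 and 4, 33.1% between 3 and 4, and 2.51% between 1 and 3. Members were summed over 30 to 117 spots and other spots over 2712 to 3217, and counting error is larger in members, whose part in these counts was not tested.

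Cilium genes in the neuroblast-marker spots differed between the sets. The motile cilium list had set medians of 0.49, 3.63, 1.44 and 3.25 there. In all sets 7 of 36 of its compared genes were higher, beside 2.8% of all compared genes. Of the genes called higher, the 10 with the widest range over the sets were Crygn, Dnali1, Ttc21a, Fam216b, Tctex1d4, Dnaaf3, Mlf1, Lrrc23, Capsl and Drc7. Crygn, a crystallin gene, had log2 ratios of 1.85, 5.33, 1.34 and 4.39, and Dnali1 of 1.67, 5.66, 2.26 and 5.15. All 10 were higher in sets 2 and 4, where members with both rules were frequent, than in sets 1 and 3. In neuroblast-only spots the summed cilium list was 595, 1175, 768 and 779 CPM, against 3907 and 4304 CPM in the spots with both rules of sets 2 and 4.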

How the data were processed

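RNA was read from spots of coronal mouse brain sections with the Visium CytAssist assay for formalin-fixed, paraffin-embedded tissue, per the labels' protocols. The authors deposited 1 table of counts for 12602 spots and 19465 genes, not normalized. Space Ranger and Seurat are named in the submitters' processing notes, and their versions, the genome build and the probe set are not given in the sources used here. A minimum of 500 counts left out 1 spot. Counts were summed by kind of spot and barcode set and divided by their total to give CPM. Ratios were taken after adding 1 CPM, for genes averaging 10 CPM or more over the 2 kinds compared, with the 10 genes of the rule and sex-difference genes left out. A gene was called at 2-fold in the same direction in every set with at least 10 spots of each kind. Summed counts of the members ran from 2715612 to 3534454 per set, and exact Poisson, Clopper-Pearson and conditional binomial 95% intervals cover counting error only. Doublets were not called, since a spot can hold several cells. Positions of spots were not used here. The barcode sets could not be tied to the mice, so the edgeR quasi-likelihood test planned between genotypes was not run, and no p-value was computed. The members and the gene lists were chosen with earlier results of these data known.

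Genes were named by rule: the 15 on the higher side and the 8 on the lower side with the largest ratio in their weakest set in each kind of spot, 8 on each side by the same measure between the marker-only kinds, the planar polarity list, the extremes of every list, and the 10 called genes with the widest range over the sets. Other list genes were named after their values were seen. A few genes that the rule names are not reported here. Alternatives were other thresholds, scaling (TMM in edgeR 4.0.16), pseudocounts, filters and depths, and leaving out each set. The steps were tested on simulated data. Python 3.11.15, numpy 2.4.6, scipy 1.17.1, pandas 2.3.3, matplotlib 3.10.9 and R 4.3.3 were used. Promoter sequences came from RefSeq on GRCm38.p6, matched by gene symbol.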

Additional observations from a re-analysis of the deposited data

How the results depend on the processing

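No paired analysis was possible because no barcode set could be tied to a mouse or to a replicate number, and for the same reason the genotype test was not run. Of the 4 shares of members and the 6 counts of called genes, 93 values kept within 1.5 times the count or within the interval of the share. The shares were 1.77, 2.39, 2.12 and 3.86% in sets 1 to 4 with a mean z of 2.0 as the threshold. With z-scores within each set they were 2.95, 2.67 and 3.95% in sets 1, 2 and 4, and with each z capped at 3 they were 2.53 and 4.07% in sets 3 and 4. Keeping the choroid spots gave 4.81 and 5.40% in sets 1 and 3, and leaving them out from a mean z of 1, chosen after seeing the data, gave 1.64 and 2.29%.

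With the threshold of 2.0, 498 genes were higher and 347 lower in neuroblast-marker spots, and 703 were higher and 457 lower in ependymal-only than in neuroblast-only spots, the last over 3 sets. With capped z, 81 genes were lower in ependymal-only spots, and with choroid spots kept, 485 were higher in neuroblast-marker spots. Leaving out 1 set at a time gave 214 to 319 lower genes in ependymal-marker spots, 280 to 522 higher in neuroblast-marker spots, and 301 to 477 higher and 143 to 319 lower in ependymal-only spots, the highest each time without set 2. TMM scaling gave 372 lower genes in ependymal-marker spots and 190 higher and 338 lower in neuroblast-marker spots. A pseudocount of 10 CPM gave 381 higher genes in ependymal-marker spots, 128 higher and 110 lower in neuroblast-marker spots, and 196 higher in ependymal-only spots. Without a minimum level 501 genes were higher in neuroblast-marker spots.

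List medians are given here above that of all genes, and 125 kept within the spread between sets. With the threshold of 2.0 the ependymal-marker medians were 0.35 for septum and -0.10 for thalamus. In neuroblast-marker spots they were then 0.29 for planar polarity, 1.36 for neural stem cell, 1.74 for transit-amplifying, 3.21 for cell cycle, 1.48 for neuroblast, 0.12 for niche receptors, 2.76 for choroid plexus and -2.34 for hypothalamus genes. With members chosen on spots thinned to 10000 counts they were 0.45 for septum in ependymal-marker spots, and 0.39 for multiciliation regulators and 0.19 for niche receptors in neuroblast-marker spots. Between sets 2 and 4, 616 genes were apart in neuroblast-marker spots at the threshold of 2.0. Without a minimum level the genes apart between sets 1 and 2, 1 and 3, 1 and 4, 2 and 3, 2 and 4, and 3 and 4 numbered 4237, 1539, 4034, 3675, 2017 and 3913 in ependymal-marker spots and 6271, 3119, 6702, 3754, 2641 and 4515 in neuroblast-marker spots. For single named genes, 3017 values kept their call, 100 gained it, 86 lost it, and 115 that were not called changed sign, while no called gene did.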

Other observations

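Further lists described other cell types that spots on the ventricle wall could hold. Of the tanycyte list, which marks the specialised lining of the third ventricle, 0 of 6 compared genes were higher in ependymal-marker spots and 2 of 6 were lower. These were Frzb, a secreted Wnt antagonist (-2.49), and Dio2, the enzyme that activates thyroid hormone (-1.86), in median log2 ratio. Of all compared genes 5.44% were higher and 1.98% lower in ependymal-marker spots. The sets did not run the same way, with list medians of -1.39, 0.58, -1.05 and -0.38. Tanycyte markers reached a mean z of 1 in 0%, 19.4%, 0% and 1.30% of ependymal-only and 0.243%, 0.959%, 0.218% and 2.11% of other spots, with set 2 the highest among ependymal-only spots. The 0 of 41 and 0 of 54 in sets 1 and 3 allow up to 8.60 and 6.60%. No gene of the list was called in neuroblast-marker spots (0 of 6). The choroid plexus list, with the 3 genes used for leaving spots out not among those compared, had 4 of 5 higher in ependymal-marker spots, Calml4 (5.62), Ecrg4 (4.77), Prlr (1.70) and Clic6 (1.36). In neuroblast-marker spots 2 of 5 were higher, beside 2.8% of all compared genes, namely Calml4 (3.90) and Ecrg4 (3.57). The summed level of the list was 879, 433, 597 and 596 CPM in ependymal-marker, 1583, 514, 1010.1 and 626 CPM in neuroblast-marker and 339.6, 250.4, 269 and 259 CPM in other spots, against 17722, 15763 and 35519 CPM in the choroid spots of sets 1, 3 and 4. White-matter spots stood at 1266, 1057, 1050 and 929 CPM, above the ependymal-marker spots in every set, so the sum is not particular to the members. Enpp2, the most widely known secreted enzyme of the choroid plexus, was not called in ependymal-marker spots (0.29).

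For further cell types the counts are read against 5.44% of all compared genes higher in ependymal-marker and 2.8% in neuroblast-marker spots, a background at which lists this short hold about 0 calls. In ependymal-marker spots 0 of 11 microglia genes, 0 of 8 endothelial and mural genes, 0 of 9 oligodendrocyte precursor genes and 0 of 7 thalamus genes were higher, and 1 of 2 fibroblast genes, Col1a2 (1.08). In neuroblast-marker spots these were 0 of 11, 0 of 8, 1 of 9 (Olig2), 0 of 5 and 0 of 2, and in the septum list 1 of 5 was lower, Cabp7 (-1.42). In ependymal-marker spots 1 of 8 transit-amplifying genes were higher, Insm1 (1.84), and 1 of 7 cell cycle genes, Mcm6 (1.54). The cell cycle list's set medians there were 0.48, 2.55, 1.06 and 1.82, highest in the sets in which members with both rules were frequent. In neuroblast-marker spots 1 of 7 multiciliation regulators were higher, Myb (3.12), and 4 of 14 surface genes, Mia (3.0), Vim (2.75), Cd24a (2.40) and S100a6 (2.04).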
